A study of Mus musculus with 8 samples.

Results

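Of the 65316 regions at which Ezh2 peaks of both replicates met in EML_C1 cells, 2460 regions, or 3.77%, were touched by no peak of H3K27me3 and by no peak of Runx1 in either replicate. They are called Ezh2-only regions here. The peaks of both Ezh2 lists were merged, and a merged region was kept where both lists contributed. The regions were therefore chosen by measured values, namely the presence of Ezh2 peaks and the absence of the other peaks, so Ezh2 values and the lack of the mark or Runx1 in them are a description. The other Ezh2 regions comprised 59184 in the mark without Runx1 (90.6%), 462 with Runx1 outside the mark (0.707%) and 3210 with the mark and Runx1 (4.91%).

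EML_C1 is a mouse haematopoietic progenitor cell line that needs stem cell factor. The cells were cultured with that factor, at passage 4-5, and the strain is given as C57BL/6. ChIP-seq, which sequences the DNA that an antibody pulls down with its protein, was done for Ezh2, H3K27me3 and Runx1 with 2 replicates each. The Ezh2 and Runx1 samples received the protein crosslinker DSG before formaldehyde and shared 1 input library, whereas the H3K27me3 samples received formaldehyde only and had another input. No group carried a mutation or a treatment in the labels. The labels do not say that replicates were separate cultures, so the spread between them may be technical. The series holds no expression data, and the identity of the cells could not be checked against marker genes. Depth is unknown, as no source used here states read totals.

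Ezh2 is the catalytic subunit of Polycomb repressive complex 2, which places methyl groups on lysine 27 of histone H3 together with the core subunits Eed and Suz12. Accessory subunits such as Jarid2 and the Polycomb-like proteins bring the complex to chromatin, often to CpG-rich promoters of genes that are silent in the cell. Trimethylation, H3K27me3, is the form that marks repressed Polycomb targets, while the same enzyme also makes the mono- and dimethylated forms. Runx1 is a DNA-binding factor needed for the first blood stem cells and for lymphoid and megakaryocytic development.

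The absence of the mark held for the peak lists as deposited, which include weak peaks, and it was often a matter of short distances. The median Ezh2-only region lay 675 bp from the nearest H3K27me3 peak, and 986 of 2460 (40.1%) lay within 500 bp of one. H3K27me3 peaks were within 1 kb of 1611 regions (65.5%), and 163 regions had none within 5 kb. When only H3K27me3 and Runx1 peaks with a q of at most 0.01 were allowed to exclude a region, 45540 of the Ezh2 regions qualified. Membership was thus mostly set by weak peaks, chiefly those of H3K27me3. At the boundary, 244 Ezh2-only regions had another peak within 100 bp, with median Ezh2 folds of 2.41 and 2.36 in replicates 1 and 2. The 487 regions that missed membership with at most 100 bp covered had 2.43 and 2.36.

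A few Ezh2-only regions lay on promoters, and 6 of these are shown to set CpG-rich beside CpG-poor promoters. Each sequence is the 250 bases upstream of a RefSeq transcript start on GRCm38.p6, which has the chromosome coordinates of mm10, written 5′ to 3′ on the gene's strand. Capitals mark CpG dinucleotides. A base of an Ezh2-only region lay in every one of these windows. The first 3 are CpG-rich.
Tlcd3a: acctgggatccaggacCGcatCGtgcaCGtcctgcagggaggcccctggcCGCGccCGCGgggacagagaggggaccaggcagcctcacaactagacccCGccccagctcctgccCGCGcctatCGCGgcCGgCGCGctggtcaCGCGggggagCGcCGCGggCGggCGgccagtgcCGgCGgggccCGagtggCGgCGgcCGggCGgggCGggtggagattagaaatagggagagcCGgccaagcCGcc
Mier3: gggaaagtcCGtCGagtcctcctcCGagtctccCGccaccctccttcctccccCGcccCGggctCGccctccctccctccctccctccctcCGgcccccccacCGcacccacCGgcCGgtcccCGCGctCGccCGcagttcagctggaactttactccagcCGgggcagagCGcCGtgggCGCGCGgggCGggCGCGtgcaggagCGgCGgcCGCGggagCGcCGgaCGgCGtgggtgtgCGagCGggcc
Plekha5: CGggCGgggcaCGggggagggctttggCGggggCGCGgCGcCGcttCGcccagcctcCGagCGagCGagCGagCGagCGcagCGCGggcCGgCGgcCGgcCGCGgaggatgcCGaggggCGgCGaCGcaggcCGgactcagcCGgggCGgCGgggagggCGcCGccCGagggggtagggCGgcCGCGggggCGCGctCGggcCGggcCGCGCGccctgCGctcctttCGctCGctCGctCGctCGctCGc
The other 3 are CpG-poor.
Ccdc83: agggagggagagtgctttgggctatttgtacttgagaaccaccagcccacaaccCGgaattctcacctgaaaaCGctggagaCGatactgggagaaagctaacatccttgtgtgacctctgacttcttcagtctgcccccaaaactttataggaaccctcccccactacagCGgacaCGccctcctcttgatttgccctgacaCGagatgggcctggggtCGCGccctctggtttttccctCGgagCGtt
Glrp1: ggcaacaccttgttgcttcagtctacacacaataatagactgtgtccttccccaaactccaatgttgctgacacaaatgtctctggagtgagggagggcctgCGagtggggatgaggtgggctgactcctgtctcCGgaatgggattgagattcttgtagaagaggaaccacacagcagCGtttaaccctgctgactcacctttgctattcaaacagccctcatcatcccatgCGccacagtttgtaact
Cstdc2: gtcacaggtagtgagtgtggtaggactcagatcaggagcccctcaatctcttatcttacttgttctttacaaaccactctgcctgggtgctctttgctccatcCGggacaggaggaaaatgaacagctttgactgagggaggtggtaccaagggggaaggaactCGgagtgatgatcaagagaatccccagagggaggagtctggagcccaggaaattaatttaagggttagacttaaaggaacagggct

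The Tlcd3a window (chr11:76201842-76202091, plus strand) held 32 CpG dinucleotides, that of Mier3 (chr13:111685928-111686177, plus) 34 and that of Plekha5 (chr6:140423849-140424098, plus) 50. Those of Ccdc83 (chr7:90265433-90265682, minus), Glrp1 (chr1:88510067-88510316, minus) and Cstdc2 (chr2:148850935-148851184, minus) held 10, 4 and 2. Both kinds of promoter therefore occurred among these regions. Tlcd3a, which encodes a membrane protein with a TLC domain, carried the Ezh2-only region of highest fold at any transcript start available here. None was available on chromosome 18. The fold at Tlcd3a is given next. Its Ezh2 fold enrichment was 4.69 in replicate 1 and 3.85 in replicate 2, or 4.27 ± 0.594 (SD, n = 2). The nearest H3K27me3 peak was 159993 bp away and the nearest Runx1 peak 14807 bp away.

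Most Ezh2-only regions were narrow and weak. Their median width was 352 bp, with a range of 203 to 1517 bp, beside 469 bp over all Ezh2 regions. A wider region is more readily touched by another peak and so excluded, which builds part of this difference into the choice. The median Ezh2 fold, which is the authors' value for the highest peak of each region, was 2.43 in replicate 1 and 2.36 in replicate 2 (2.40 ± 0.048, SD over n = 2 replicates). Regions in the mark without Runx1 had 2.64 and 2.58, those with Runx1 outside the mark 2.52 and 2.28, and those with both 3.10 and 2.79. The fold of Ezh2-only regions was thus the lowest of the 4 kinds in replicate 1, and in replicate 2 it lay above that of regions with Runx1 outside the mark. Peaks reached a q of at most 0.01 in both replicates in 86 Ezh2-only regions (3.50%, exact 95% binomial interval 2.81 to 4.30%), against a background of 13.9% over all Ezh2 regions. In either replicate they did so in 459 (18.7%), against 44.2%.

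**Figure D1:**
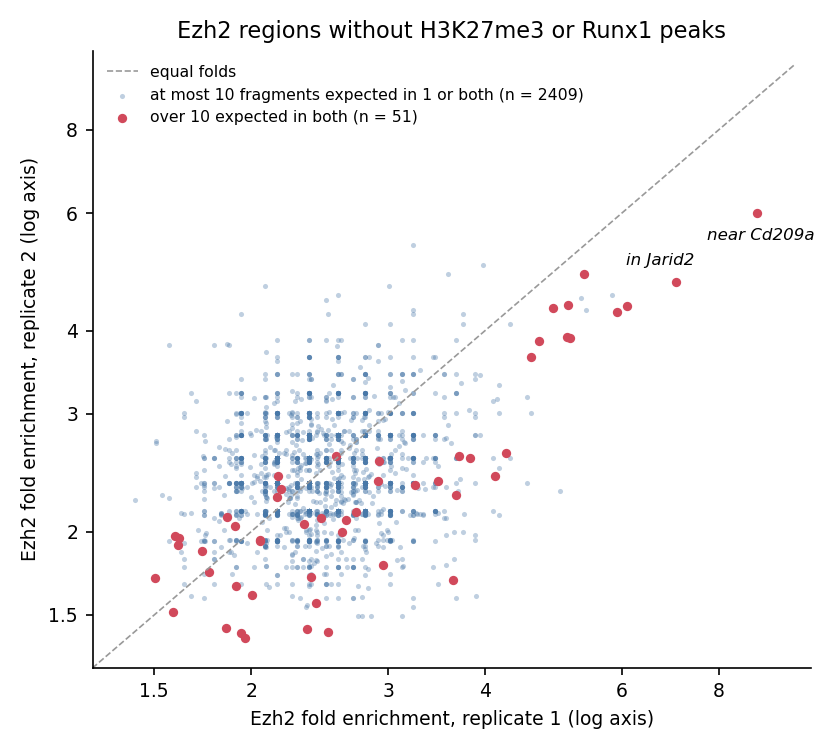
Ezh2 fold enrichment of the 2460 Ezh2-only regions in replicate 1 (x axis) and replicate 2 (y axis), both on log axes, each point being 1 region and the dashed line equal folds. Most points form a cloud near the medians of 2.43 and 2.36, and the 12 regions of highest mean fold, of which 9 had over 10 fragments expected in both replicates, lie below the line.

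The fold and p-value of a narrow peak together allow the number of fragments at its summit to be recovered, if the peak caller used a Poisson test with 1 added to both counts. Whole numbers came out for 65314 of 65316 regions in each replicate, within 0.001 in -log10 p, and for all 2460 Ezh2-only regions. The median Ezh2-only region had 11 fragments at its summit in each replicate, against 3.64 and 3.65 expected from the background. All Ezh2 regions together had 13 and 13. Between 8 and 15 fragments were found at 2227 Ezh2-only regions (90.5%) in replicate 1 and at 2250 (91.5%) in replicate 2. Lower and upper quartiles of Ezh2-only regions were 10 and 13 fragments in each replicate. Those of all Ezh2 regions were 11 and 17 in replicate 1 and 11 and 16 in replicate 2. The typical Ezh2-only region thus rested on few fragments, and folds moved in steps of 1 fragment. Low counts were also common among Ezh2 regions as a whole. The expected number was at its lowest value, 3.64 or 3.65, in 56.3% and 55.8% of Ezh2-only regions, compared with 33.3% and 32.9% of all regions.

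**Figure D2:**
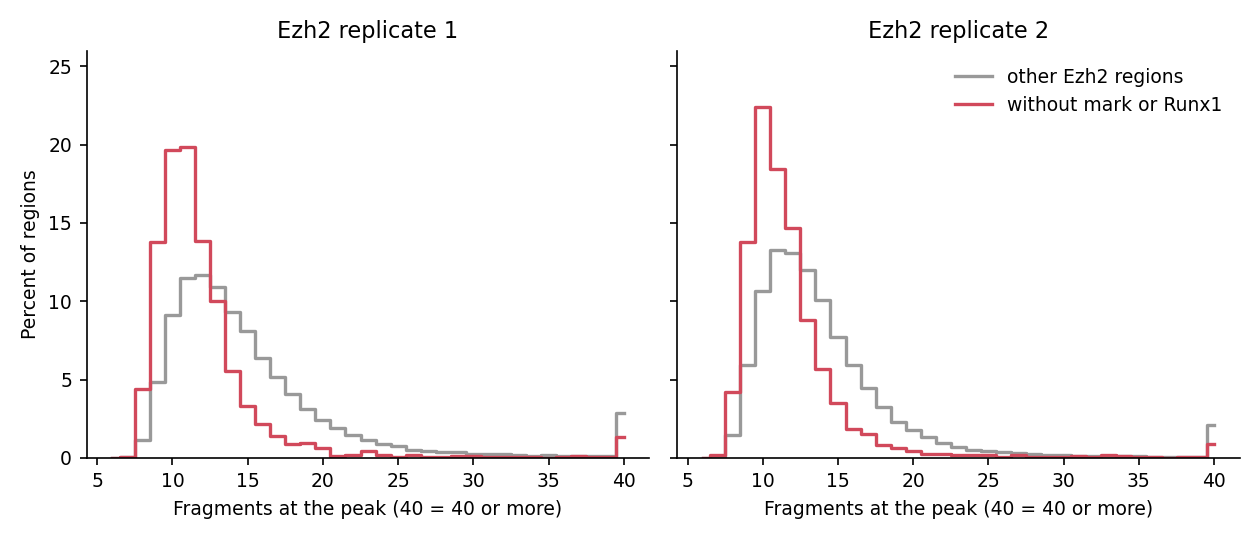
Percent of regions (y axis) by the number of fragments recovered at the Ezh2 peak (x axis, with 40 or more in the last bin) in replicates 1 and 2, for the 2460 Ezh2-only regions in red and all other Ezh2 regions in grey. The red curves are narrower and lie to the left, with 90.5% and 91.5% of Ezh2-only regions at 8 to 15 fragments.

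Replicates met in every region by the rule, which also bounds the gap between their summits, but they ordered the regions differently. The summits of both replicates lay within 100 bp in 1503 Ezh2-only regions (61.1%), with a median gap of 78 bp, compared with 50.2% and 100 bp over all Ezh2 regions, which were wider. The Spearman correlation of the folds of both replicates was 0.14 across the 2460 regions and 0.30 across all Ezh2 regions, as a description over regions that share a library and an input. Fold was higher in replicate 1 in 1352 of 2460 regions, and in all 12 regions of highest mean fold.

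The strongest Ezh2-only regions were unlike the typical ones in the depth of their background. Of the 12 with the highest mean fold, 9 had more than 10 fragments expected in both replicates. This was so for 51 of all 2460 (2.07%), near the 2.63% of all Ezh2 regions. None of the 12 lay within 1 kb of a gene end, and 6 lay inside a gene. The highest was on chromosome 8 at 3754379 to 3754722, 5566 bp from Cd209a, a C-type lectin receptor gene. It had Ezh2 folds of 8.96 and 5.99, from 383 and 256 fragments against 41.8 and 41.9 expected. Its nearest H3K27me3 peak was 4511 bp away.

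The region next in rank lay inside Jarid2, the gene of an accessory subunit of Polycomb repressive complex 2, on chromosome 13 at 44869565 to 44870022. Folds there were 7.05 and 4.73, a mean of 5.89 ± 1.64 (SD, n = 2). These came from 757 and 488 fragments, the highest counts among these 12 regions, against 107 and 102 expected. The region was 51850 bp from an end of the gene, 141227 bp from the nearest H3K27me3 peak and 26666 bp from the nearest Runx1 peak. Both replicates thus placed a strong peak far from the mark, on a stretch where the background itself was deep. Whether the deep background takes part in these folds was not tested. Overlap with repeats or with regions known for artefact signal was not checked for the 51 regions with more than 10 fragments expected in both replicates.

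Similar values were seen inside Arhgap21, a GTPase-activating protein gene, where the folds were 5.36 and 4.86 and 53.3 and 52.1 fragments were expected. The mark was 66052 bp away. A region on chromosome 8, 372596 bp from its nearest gene Csmd1, had folds of 6.09 and 4.35, with 99.9 and 101 fragments expected. Near Cerk, the ceramide kinase gene, they were 5.91 and 4.27, and inside Sspn, which encodes sarcospan of the dystrophin complex, 5.14 and 3.89. A lncRNA gene on chromosome 14, D130009I18Rik, whose nearest protein-coding gene is Obi1, held a region with folds of 5.10 and 3.91. The region 266986 bp from Cntnap2, a neurexin-family gene, had 4.89 and 4.32. In every one of these 6 the expected number exceeded 10 in both replicates.

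The other 4 of the strongest 12 differed in background or in distance to other peaks. Tmc2, a channel gene of inner ear hair cells, held a region with folds of 5.82 and 4.51 from 26 and 20 fragments, at the lowest expected number. It was 204 bp from an H3K27me3 peak. The region 39883 bp from the ribosome biogenesis gene Rsl24d1 had 5.39 and 4.30 from 24 and 19 fragments, and was 257 bp from the mark. Rnf220, a ubiquitin ligase gene, had 5.32 and 4.48 from 42 and 41 fragments. Inside Il31ra, a cytokine receptor gene, folds were 5.12 and 4.36, and both an H3K27me3 peak (86 bp) and a Runx1 peak (113 bp) were close. Among the 51 regions of deep background as a whole, 11 had a mean fold of at least 4 and 19 had one under 2, compared with 7 and 85 of the other 2409.

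Distance separated the mark from Runx1 around these regions. The median distance to the nearest Runx1 peak was 13032 bp, against 675 bp for the mark, and 1827 regions had no Runx1 peak within 5 kb. Runx1 peaks were within 500 bp of 118 regions. Neither kind of peak was within 1 kb of 766 regions, within 5 kb of 101, within 10 kb of 35 and within 50 kb of 3. These 3 lay far from genes, the nearest being Gm52257 at 579304 bp, Ncam2 at 722108 bp and Celf4 at 2084360 bp. They had 9 to 11 fragments in each replicate. H3K27me3 had 220455 and 178423 peaks over 12.8% and 7.46% of the genome, and Runx1 had 64059 and 66153 over 0.879% and 0.928%, so distances to each are not on an equal footing.

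**Figure D3:**
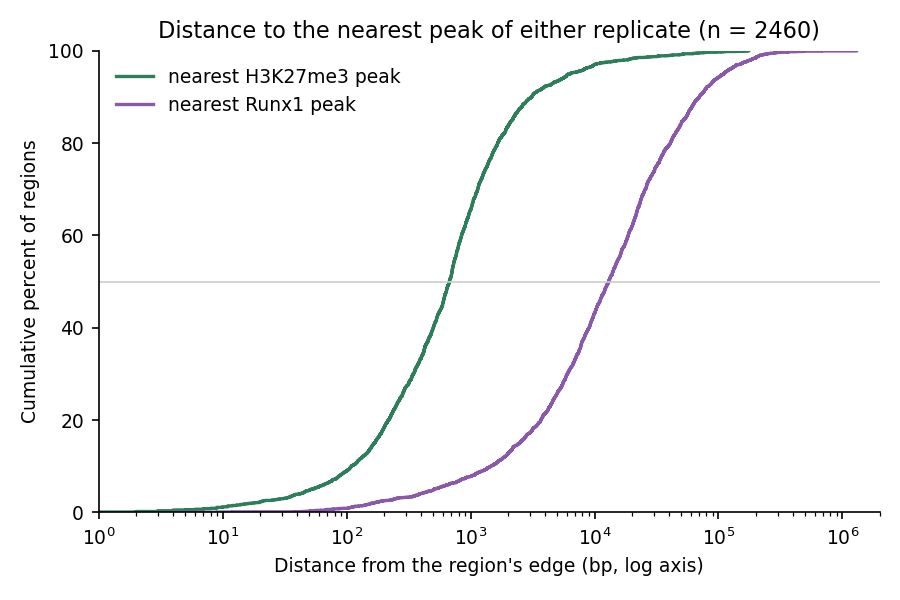
Cumulative percent of the 2460 Ezh2-only regions (y axis) by distance from the region's edge to the nearest H3K27me3 peak (green) or Runx1 peak (purple) of either replicate, in bp on a log axis. The curves cross 50% at 675 bp for the mark and at 13032 bp for Runx1.

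At the median, the surroundings of Ezh2-only regions were covered more by the mark than the whole genome was, but less than those of marked regions. In the 10 kb on each side of the centre, the region included, H3K27me3 peaks covered a median of 30.8% in replicate 1 and 15.6% in replicate 2. The kinds were set by whether such a peak touches the region, so part of the difference between them is built into the choice. They covered 12.8% and 7.46% of the genome as a whole, 68.3% and 46.2% around Ezh2 regions in the mark without Runx1, and 13.7% and 5.85% around those with Runx1 outside the mark. Other Ezh2 regions were also sparser. The nearest one was a median of 5211 bp away, compared with 950 bp for regions in the mark, and 1548 Ezh2-only regions (62.9%) had one within 10 kb, against 87.2% of all.

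Among the regions far from the mark were strong and weak ones. The region 168741 bp from the mark, whose nearest gene was the transcriptional coregulator gene Cited2 at 776373 bp, had 2.29 and 2.58. Tlcd3a and Jarid2, described above, held regions at 159993 and 141227 bp. Another region lay 114252 bp from the mark and 55361 bp from Lpp, and it had 2.37 and 2.58 with a Runx1 peak at 208 bp.

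Ezh2-only regions lay mostly away from genes. Their centre was within 1 kb of an end of a protein-coding gene in 104 regions (4.23%, exact interval 3.47 to 5.10%), against 6.72% of all Ezh2 regions. The share was 5.67% for Ezh2 regions in the mark without Runx1, 23.1% for those with the mark and Runx1 and 40.7% for those with Runx1 outside the mark. Transcript starts, which are known for 17492 of 21887 genes, were within 1 kb of 67 regions (2.72%), against 4.18% of all. No start on chromosome 18 was available, so its 83 Ezh2-only regions among 1860 Ezh2 regions could not be counted at a start. Centres lay inside a gene in 1018 regions (41.4%, interval 39.4 to 43.4%), against 49.1%. LncRNA genes were touched by 308 regions (12.5%, compared with 13.4% of all) and pseudogenes by 21 (0.854%, compared with 0.922%). SnoRNA genes were touched by 2 (0.0813%, compared with 0.0291%). Genes of tRNA, miRNA, snRNA and rRNA were touched by 0, compared with 0.0352%, 0.0689%, 0.0184% and 0.0122% of all. At shares this low few or no such regions would be found in any case, so nothing is read from the small RNA counts. The intervals cover counting error only.

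**Figure D4:**
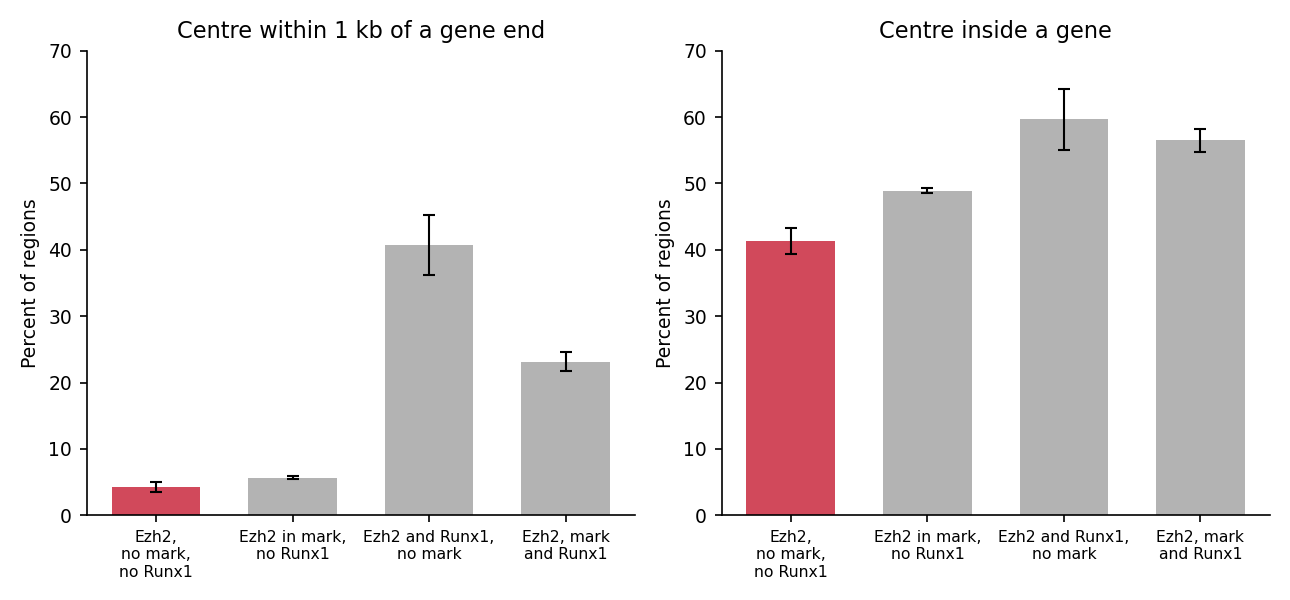
Percent of regions centred within 1 kb of a gene end (left) or inside a protein-coding gene (right) for the 4 kinds of Ezh2 region, with exact 95% binomial intervals that cover counting error only. Ezh2-only regions (red) are at 4.23% and 41.4%, and regions with Runx1 outside the mark are at 40.7% and 59.7%.

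At gene ends, the 12 regions of highest mean fold were at genes of many kinds. That of Ccdc83, a coiled-coil protein gene whose promoter is shown above, had folds of 4.17 and 3.32 (mean 3.74 ± 0.601, SD, n = 2) from 23 and 18 fragments. It was 169 bp from an H3K27me3 peak. Defb23, a beta-defensin gene, had 5.00 and 2.30, so replicate 1 carried that value. The end of Tsc22d3 on chromosome X, a glucocorticoid-induced leucine zipper gene, had 3.54 and 3.44. Replicates also stood close at Ubtf, which encodes a factor of RNA polymerase I, with 3.06 and 3.18, and at the cholesterol exporter gene Abca1 with 3.12 and 3.44.

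Mier3, a gene of a putative corepressor with ELM2 and SANT domains, had 2 Ezh2-only regions at its start. The stronger, inside the gene, had folds of 4.25 and 2.62 and the weaker, over the window shown above, had 2.96 and 1.78. Both had more than 10 fragments expected in both replicates. The nearest Runx1 peak lay 24575 and 23456 bp away.
Nck2, an adaptor of receptor kinases, had 3.82 and 3.04 with a Runx1 peak at 678 bp. Dlat, which encodes the acetyltransferase of the pyruvate dehydrogenase complex, had 3.58 and 2.89 with a Runx1 peak at 502 bp. Ephb6, a kinase-dead ephrin receptor gene of T cells, had 2.58 and 3.79, with an H3K27me3 peak at 237 bp and a Runx1 peak at 189 bp. Ttll11, Cstdc2 and Rhbdl2 completed the 12 with mean folds of 3.20, 3.15 and 3.12. Glrp1, at whose alternative start a region lay, had 4.16 and 3.01. Of all 104 regions at gene ends, 19 were among the 51 with deep background. A gene end was thus near 37.3% of those 51, against 85 of the other 2409 (3.53%).

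The widest Ezh2-only region was that at Ttll11, a tubulin polyglutamylase gene, with 1517 bp. It had folds of 3.83 and 2.57 from 123 and 83 fragments. The next lay 102549 bp from Atoh1, a neural transcription factor gene, with 1507 bp, and 7403 bp from Pwp1 with 1287 bp. In both of these the summits of the replicates were far apart (407 and 445 bp), so different parts of the merged region carried each peak. The regions near Rsl24d1 (1074 bp) and Prok1 (1019 bp) had summits 32 and 98 bp apart.

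Promoters with an Ezh2-only region were intermediate in CpG content. The table of RefSeq promoters gave 68 windows of 66 genes with a start within 1 kb of such a region. Each window spans 250 bases before the start to 50 after it. Their median CpG observed over expected ratio was 0.616, and 34 (50.0%) exceeded 0.6, compared with 0.567 and 47.6% over all 21263 windows. The ratio was 0.462 at starts near Ezh2 regions in the mark without Runx1 and 0.823 at starts near those with Runx1 outside the mark.

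The 67 Ezh2-only regions at starts differed with the CpG content of the nearest promoter window. At the 33 with a CpG ratio over 0.6, the median region had 19 and 16 fragments against 5.91 and 7.45 expected. At the other 34 it had 12 and 12 against 3.80 and 3.91. Median folds were 2.56 and 2.55 at CpG-rich starts and 2.48 and 2.36 at CpG-poor ones. More fragments at CpG-rich starts thus went with a deeper background and little difference in fold. A Runx1 peak was within 1 kb of 23 of the 33 regions at CpG-rich starts and of 6 of the 34 at CpG-poor ones. Of all Ezh2-only regions, 7.76% had one within that distance. An H3K27me3 peak was within 1 kb of 17 of the 33 and of 21 of the 34, beside 65.5% of all Ezh2-only regions.

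Short sequence motifs were counted in the same windows on both strands, as exact letters. The RUNX motif TGTGGT was found in 16.2% of the 68 windows and in 14.97% of all windows, and the ETS motif CCGGAA in 14.7% and 18.7%. The GC box GGGCGG stood in 48.5% and 46.2%, the CCAAT box in 38.2% and 38.2%, and the E-box CACGTG in 8.82% and 7.84%. The NRF1 core GCATGCGC was found in 2.94% and 3.52%, the YY1 core AAGATGGC in 4.41% and 3.05%, and the CRE motif TGACGTCA in 0 of 68 windows and 2.23% of all. Windows at Ezh2-only regions thus had shares close to those of all windows. The number of windows at Ezh2-only regions is small. The letters were counted separately, and different motifs may share bases.

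Genes with an Ezh2-only region in them or at an end were long. They numbered 837, or 3.82% of 21887 protein-coding genes, and 104 genes, or 0.475%, had one at an end. Their median length was 104878 bp, compared with 17169 bp over all genes. A region was found at 88 of 11849 genes of at most 20 kb (0.743%), at 315 of 7609 genes of 20 to 100 kb (4.14%) and at 434 of 2429 longer genes (17.9%). Any count over a list of genes is therefore also a count over gene lengths.

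Tanc2, a postsynaptic scaffold gene of 339845 bp on chromosome 11, held most, with 10 Ezh2-only regions among 62 Ezh2 regions. The other 52 lay in the mark without Runx1, and H3K27me3 peaks covered 34.0% and 18.8% of the gene in the 2 replicates. Its 10 regions were 150 to 2647 bp from an H3K27me3 peak. They had mean folds of 1.98 to 3.01, rested on 9 to 19 fragments, and 0 of them reached a q of 0.01 in both replicates. All 10 thus lay close to marked stretches. Dlg2, another synaptic scaffold gene, of 1973059 bp on chromosome 7, held 9 among 27 Ezh2 regions, and the mark covered 5.77% and 2.49% of it. Cep112 followed with 7 of 60, and Sox6, a transcription factor gene of erythroid and cartilage cells, with 6 of 61. Fggy held 6 among 11 Ezh2 regions.

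The 21 gene lists gave few genes. Among blood lists, the B lymphoid list had most, with 5 of 20 genes (25%, beside 3.82% of all genes), of which 2 at an end. 3 of its 20 genes, and 2 of these 5, were longer than 100 kb. Ebf1, a transcription factor that specifies B cells, had a region inside the gene with folds of 2.71 and 2.79, 39 bp from an H3K27me3 peak, and another 219 bp beyond an end with 2.16 and 2.12. Pou2af1, the coactivator of octamer factors in B cells, had 2.80 and 2.36 inside the gene and 2.33 and 1.77 at an end. Bach2, a repressor of plasma cell fate, held 2 regions, and the signalling genes Blk and Blnk held 1 each. All 8 regions of these genes rested on 8 to 14 fragments per replicate, with q above 0.01 in both replicates, and their nearest H3K27me3 peaks were 14 to 1696 bp away.

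In the T lymphoid list 1 of 35 genes (2.86%) had Ezh2-only regions, beside 3.82% of all genes. This was Ets1, a lymphoid transcription factor gene, with 2 regions inside it at folds of 3.45 and 2.79 and of 2.59 and 1.93. Of 34 stem and progenitor regulators 1 (2.94%) had one, namely Gfi1, a repressor that restrains stem cell cycling. It lay at 911 bp from a gene end with folds of 2.73 and 2.14, from 30 and 25 fragments against 10.4 and 11.1 expected, 541 bp from a Runx1 peak. The erythroid and megakaryocytic list had 1 of 20 (5%), the membrane skeleton gene Ank1 with 2.37 and 2.15. The myeloid list (24 genes), the mast cell list (13 of 14 symbols matched), cytokine receptor and RAS genes (31) and cell cycle inhibitors and tumour suppressors (21) had 0 each. At the share of 3.82% over all genes, lists this short would hold few such genes, so nothing is read from these counts.

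Of Polycomb genes 1 of 33 (3.03%), Jarid2, had a region, and of chromatin activator genes 0 of 28, beside 3.82% of all genes. Developmental genes, classical Polycomb targets, had shares of 2 of 68 non-blood developmental transcription factor genes (2.94%) and 2 of 39 Hox genes (5.13%), beside 3.82% of all genes and 0.743% of genes of at most 20 kb. The median gene of both lists was shorter than 20 kb. Of the genes with a region, Tbx3 (14191 bp) and Hoxb4 (3372 bp) were of that length. Pax2 (91669 bp) and Hoxb3 (40830 bp) were longer, in the class of 20 to 100 kb, in which 4.14% of all genes had a region. Tbx3, a limb and heart regulator, had a region 497 bp from a gene end with folds of 2.80 and 2.58. Pax2, of kidney and eye development, had 1 inside the gene with 2.99 and 2.01. Among Hox genes a single region, with 2.54 and 2.95, was counted at 2 genes because it lay inside Hoxb3 and within 1 kb of an end of Hoxb4. It was 52 bp from an H3K27me3 peak.

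Neuronal genes had regions at 9 of 36 (25%), beside 3.82% of all genes. All 9 were among the 25 genes of this list longer than 100 kb, a length class in which 17.9% of all genes had a region. Ctnna2, a catenin of neuronal adhesion, held 4 regions with the highest mean fold of the list, 2.80, and Dlg2 held the 9 regions given above. Other families had few. There were 5 of 394 Zfp zinc finger genes (1.27%), led by Zfp541 with 3.02 and 2.58 and Zfp536 with 2.37 and 2.58. Olfactory receptor genes had 2 of 1106 (0.181%), Olfr381 with 2.37 and 2.96 and Olfr332 with 2.33 and 2.82. Vmn2r117 (1.94 and 2.12) was 1 of 353 vomeronasal receptor genes (0.283%), and Krt78 (2.59 and 2.40) was 1 of 109 keratin genes (0.917%). Cytosolic (84) and mitochondrial (78) ribosomal protein genes and histone genes (73) had 0. The median gene of each of these families was shorter than 20 kb, a length class in which 0.743% of all genes had a region. Protocadherin genes (69) also had 0, although 30 of them were longer than 100 kb, the class with 17.9%.

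On the chromosomes, the share of Ezh2 regions that were Ezh2-only ranged from 2.56% on chromosome 7 to 5.70% on chromosome 10, and was 13.8% on X. Chromosome X had 109 Ezh2 regions, 15 of them Ezh2-only, and H3K27me3 peaks covered 1.22% of it, compared with 11.8 to 22.4% of each autosome. Each autosome had 1858 to 6329 Ezh2 regions. Ezh2-only regions were chosen for lack of H3K27me3 peaks, so a higher share where the mark covers less is in part built into the choice, and nothing is read from it. The number of Ezh2-only regions per megabase was 0.0878 on X and 0.569 to 1.81 on autosomes, so X was high in share and low in number. Its strongest regions were a pair near Tsc22d3, with mean folds of 3.49 and 3.01. How many copies of X these cells carry was not tested.

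**Figure D5:**
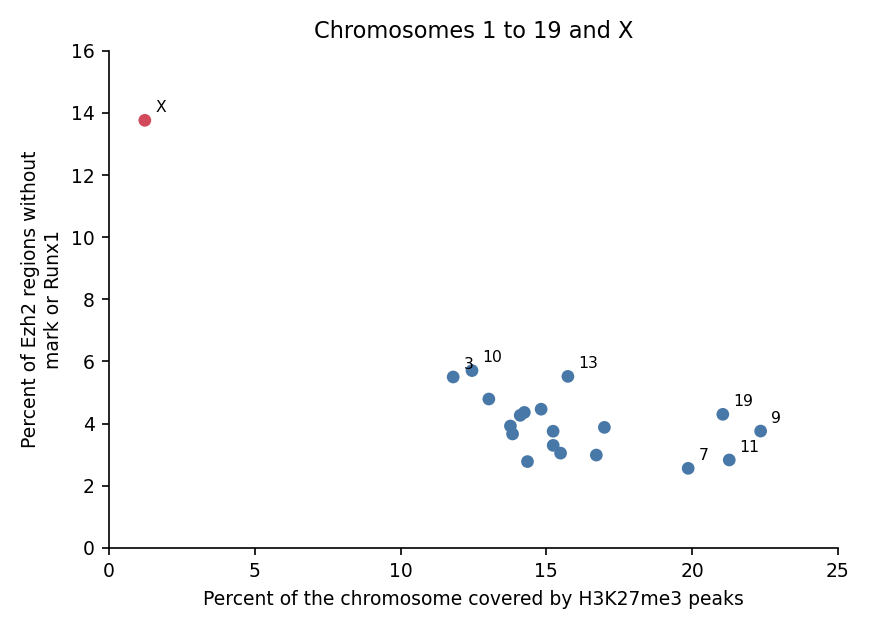
Percent of Ezh2 regions that were Ezh2-only (y axis) by the percent of each chromosome covered by H3K27me3 peaks of either replicate (x axis), 1 point per chromosome and X in red. X, with 109 Ezh2 regions, stands at 13.8% and 1.22%, and the 19 autosomes lie between 2.56% and 5.70%.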

How the data were processed

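Peaks of Ezh2, H3K27me3 and Runx1 in EML_C1 cells were analysed from 6 deposited lists, 1 per replicate and not pooled; the 2 input libraries were not analysed here. Tools listed in the submitters' processing notes are MACS2 2.0.10, Bowtie2 2.2.1, SAMtools and Picard, with mm10 as the build and no parameters. Each list, as the authors deposited it, gives a fold enrichment, which is a linear ratio, and p-values and q-values on the -log10 scale. Ezh2 and Runx1 came as narrow peaks and H3K27me3 as broad peaks. Depth is unknown, as no source used here states read totals.

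Peaks of the Ezh2 lists (178354 and 159007) that overlapped or adjoined were merged and kept where both lists contributed; any H3K27me3 or Runx1 peak with at least 1 bp in a region excluded it. A region's fold is that of its highest peak per replicate. Fragments at the peak were solved from fold and p-value under an assumed Poisson model. The solver and the overlap code were tested on simulated data. Genes were 21887 protein-coding RefSeq genes of GRCm38.p6, and gene "ends" are both ends of the span, as that table has no strand; 21263 promoter windows gave starts for 17492 genes. The members and gene lists were chosen with earlier results of these data known. Named genes are the 12 members of highest mean fold, the 12 such at a gene end, up to 2 genes per list by fold, the 5 widest and the gene with most members. Other genes named (Tlcd3a, Glrp1 and Plekha5 for their promoters, the members farthest from the mark or isolated, the further B lymphoid genes and the genes next after Tanc2) were chosen after their values were seen. A few results are not reported here. With 2 libraries per antibody and members chosen by these values, no test was run. The calculations used Python 3.11.15 with numpy 2.4.6, pandas 2.3.3 and scipy 1.17.1.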

Additional observations from a re-analysis of the deposited data

How the results depend on the processing

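The number of Ezh2-only regions depended strongly on the lists that excluded them. It was 45540 when only H3K27me3 and Runx1 peaks with a q of at most 0.01 excluded, 6005 when only regions found in both replicates did, 766 and 101 when no such peak was allowed within 1 kb and 5 kb, and 88 with Ezh2 peaks of a q of at most 0.01, beside 2460. Leaving out 1 replicate gave 2517 to 24431, with the highest when an Ezh2 replicate was left out. The median of the mean Ezh2 fold, 2.48, became 2.58 with strict excluding peaks and 3.44 with strict Ezh2 peaks, and 2.36 to 2.49 without 1 replicate. The share near a gene end, 4.23%, was 15.9% with strict Ezh2 peaks, 2.48% and 2.97% with margins of 1 kb and 5 kb, 9.72% with a window of 2.5 kb, and 2.60 to 4.53% without 1 replicate. The share in a gene, 41.4%, was 46.3% with strict excluding peaks, 38.8% and 36.6% with the margins, and 38.4 to 43.1% without 1 replicate. The share whose q in both replicates was 0.01 or less, 3.50%, was 8.35% with strict excluding peaks and 10.9% with the 5 kb margin. It was 3.32 to 3.92% without 1 H3K27me3 or Runx1 replicate. With 1 Ezh2 replicate left out, fold and q were those of the other alone. The share was then 3.98% without Ezh2 replicate 1 and 5.64% without replicate 2. Without the 51 regions with over 10 fragments expected in both replicates, the share with that q in both was 2.57% of the 2409 left. This alternative was chosen after seeing the data, and that share was the 1 of the 5 values that moved. The cause of these shifts was not tested, beyond the fewer or more regions that each setting keeps by its construction. Where replicate peaks had to share 50% of the shorter peak, 2060 regions were found, and all 5 values stayed within the replicate spread, the exact interval or, for the number, 1.5 times. No paired analysis was possible because the results come from no test between groups. Most regions rest on 8 to 15 fragments, which limits how finely their folds can be ranked.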
